A study of Mus musculus with 9 samples.

Results

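The response of wild-type brown adipose tissue to 8 h of cold was described from the 6 libraries of the series that came from wild-type mice held either in the cold or at room temperature. They were chosen by their labels alone, 6 of the 9 libraries of the series, and all 16679 genes that the authors list for this pair of groups were tested. The WT Cold group (n = 3) was C57Bl/6J mice moved from 23 °C to 4 °C early in the light phase, without bedding and with free access to food and water, and killed after 8 h. The WT RT group (n = 3) was mice of the same strain that stayed at 23 °C and were sampled at a matched hour. All were adults, housed singly at 23 °C for some days beforehand, and the study used both males and females. No allele was altered in either group, and no transgene or drug was used. The remaining 3 libraries, from cold-exposed mice lacking GCN2, entered only 1 alternative fit, named where it is used.

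Brown adipose tissue is a fat depot whose cells hold many mitochondria and small lipid droplets and whose main task is to make heat. In the cold, sympathetic nerves release noradrenaline onto β-adrenergic receptors of the brown adipocyte, cAMP rises, stored triglyceride is broken down, and uncoupling protein 1 lets protons re-enter the mitochondrial matrix without ATP being made. Fuel then has to be replaced from the blood as fatty acids, glucose and amino acids, and the same signal changes the transcription of genes for heat production, fuel uptake and lipid synthesis.

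Within each group the libraries bear the letters A to C, sorted by library code. The codes were not tied to individual mice, so no sex could be assigned. WT RT codes start with a different prefix from WT Cold codes, and a difference in preparation cannot be told apart from cold. Depth on the genes tested ran from 28774112 to 28945193 reads in WT Cold and from 30455677 to 30766437 in WT RT, and the least covered gene had 61 reads over the 6 libraries. A value below is the normalized count, the reads of a gene divided by the authors' size factor for that library. The first principal component of the log2 values held 55.8% of the variance and separated the groups, and the second held 18.4% and set WT Cold library C apart from the other 5.

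Transcripts of the sex chromosomes and of other tissues were present in every library and differed between libraries of 1 group. Xist, the RNA that silences an X chromosome in females, had 1107, 1296 and 4074 in WT Cold and 743, 730.5 and 374 in WT RT (log2 fold change 1.61, adjusted p = 0.0431). The Y-linked Ddx3y had 4292, 2653 and 219 in WT Cold and 2635, 2519 and 2604 in WT RT (log2 fold change -0.93, adjusted p = 0.502). Thus WT Cold library C was the highest of the 6 in Xist and the lowest in Ddx3y, and all 6 held both transcripts. No WT RT library had the high Xist and low Ddx3y of WT Cold library C. Of 5 sex-linked transcripts listed and tested, 1 was called higher and 0 lower (median log2 fold change -0.93, but 0.38 without WT Cold library C, -1.74 without WT Cold library A, -1.41 without WT Cold library B and -0.11 with DESeq2). The call is that of Xist, which was lost in leave-one-out fits (without WT Cold library B, WT RT library A, WT RT library B or WT RT library C, log2 fold change 1.29 to 1.85, adjusted p 0.0645 to 0.132), without the mean-variance trend (adjusted p = 0.0941), scaled to the library total (adjusted p = 0.0512) and with all 9 libraries in 1 fit (adjusted p = 0.152). Brown adipose markers were high throughout, with Ucp1 at 101357 normalized counts in the lowest library, but so were transcripts made mainly in liver. The liver protein albumin, Alb, had 25006, 45050.5 and 122195 in WT Cold and 67281, 49891 and 58360.3 in WT RT, and fibrinogen alpha, Fga, had 3150.4, 7051 and 18049 in WT Cold and 12360.2, 9766 and 11064 in WT RT. A list of 20 such liver transcripts, chosen after their values were seen, took up between 0.215 and 0.973% of the counts, lowest in WT Cold library A and highest in WT Cold library C. None of the 20 was called (median log2 fold change -0.35, but 0.14 without WT Cold library A, -0.93 without WT Cold library C and -0.08 with DESeq2 or edgeR), and the 3 WT RT libraries lay between WT Cold libraries B and C. Without WT Cold library C, 7 of the 20 were called lower. Epithelial transcripts of the large intestine were found as well. The mucin Muc2 had 2299.9, 2506 and 1489 in WT Cold and 1120, 1608 and 423 in WT RT, and the intestinal anion exchanger Slc26a3 had 2434, 3643 and 1175 in WT Cold and 1521, 1837 and 737 in WT RT. A list of 24 of them, also chosen after their values were seen, made up between 0.0308 and 0.150% of the counts, lowest in WT RT library C and highest in WT Cold library B, and 7 were called higher in WT Cold (median log2 fold change 1.005, and 0.62 without WT RT library C). That number was 0 without WT Cold library A, WT Cold library B, WT RT library C or the mean-variance trend, 2 when scaled to the library total or with all 9 libraries in 1 fit, 4 with edgeR or scaled to the upper quartile, and 17 without WT Cold library C. How these transcripts came to be in the libraries, and their part in the results below, was not tested. In whole tissue, a change in the number of cells of a type and a change in RNA per cell cannot be told apart.

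**Figure D1:**
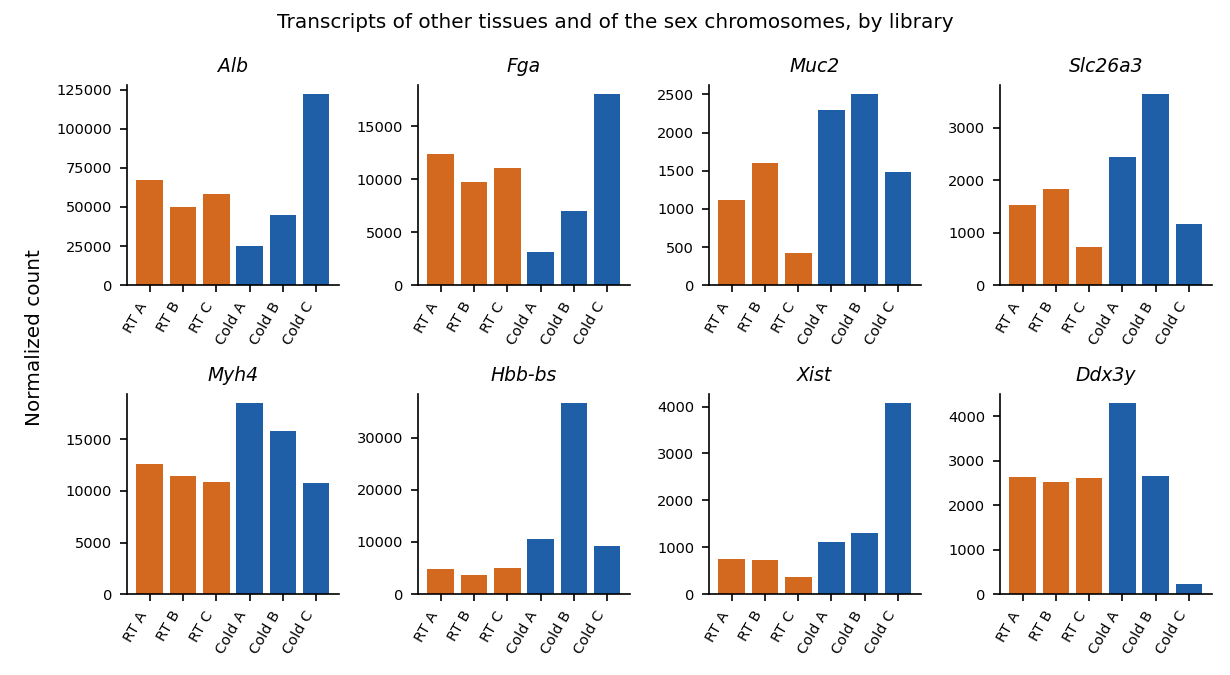
Normalized counts (vertical axes, each from 0) of 2 liver transcripts (Alb, Fga), 2 transcripts of large intestine epithelium (Muc2, Slc26a3), fast skeletal muscle myosin (Myh4), a β-globin (Hbb-bs), Xist and the Y-linked Ddx3y in the 3 WT RT libraries (orange) and the 3 WT Cold libraries (blue). WT Cold library C is the highest in Alb and Xist and the lowest in Ddx3y, and WT Cold library B is the highest in Hbb-bs.

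To be called, a gene needed an adjusted p below 0.05 and a log2 fold change beyond 1 in either direction, where the fold change is WT Cold against WT RT on the log2(normalized count + 1) scale, on which genes of few counts show less than their true change. Of the genes tested, 1357 (8.14%) were called, 498 (2.99%) higher and 859 (5.15%) lower in WT Cold. Over all genes the median log2 fold change was 0.00. At an adjusted p under 0.05 alone, 2268 of the 16679 genes were higher and 2356 lower. In 45.5% of genes the 2 groups did not overlap, that is, the 3 libraries of 1 group all lay above the 3 of the other (22.8% with WT Cold higher and 22.8% with WT Cold lower). Each gene list below is read against these shares, and none was tested as a set. A value in parentheses after a gene's libraries, with no other name, is its log2 fold change, and a median is that of the list's log2 fold changes.

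**Figure D2:**
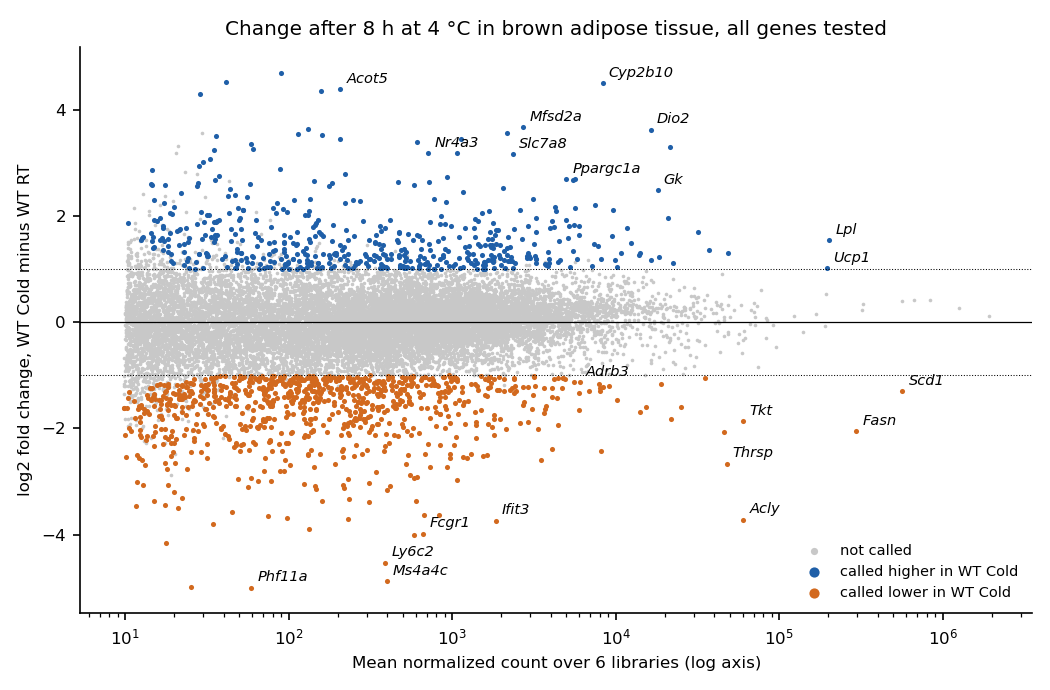
Each point is 1 of 16679 genes, with its mean normalized count over the 6 libraries (horizontal log axis) and its log2 fold change, WT Cold minus WT RT (vertical axis). Blue genes were called higher and orange genes lower in WT Cold, dotted lines mark a log2 fold change of 1 and -1, and the most abundant called genes are Scd1 and Fasn among the falls and Lpl and Ucp1 among the rises.

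The genes with the largest changes were of mixed function. The 12 largest rises, counting only genes that averaged 50 or more, were Gm11714, Cyp2b10, Acot5, 6030408B16Rik, Mfsd2a, E030018B13Rik, Dio2, Trim63, Odf3l2, Mrgprg, Cend1 and Lrrc52, with log2 fold changes between 4.70 and 3.45. Cyp2b10, a cytochrome P450 best known from liver, had 13698, 19682 and 14336 in WT Cold and 661, 469 and 1066 in WT RT. It rose by a log2 fold change of 4.50 ± 0.28 (SE; adjusted p = 0.000119). Among the WT Cold libraries it was highest in B and the liver transcripts in C, and the source of the Cyp2b10 transcripts was not tested. Mfsd2a, which carries lysophosphatidylcholine into cells, had 4681, 5233 and 5169 in WT Cold and 337, 362 and 491 in WT RT, and Trim63, a ubiquitin ligase known from muscle wasting, had 4187, 4275 and 3479 in WT Cold and 310.3, 300 and 397 in WT RT. Both were among the 5 rises with the smallest adjusted p, beside Noct, Gk and Adcy3. Noct, a circadian phosphatase of NADP, had 9028, 9978 and 9642 in WT Cold and 1272, 1576 and 1618 in WT RT (log2 fold change 2.69, adjusted p = 2.12e-05). Of these 12 rises, Mrgprg lost its call in alternative fits (without WT Cold library A, WT RT library B or WT RT library C, log2 fold change 2.86 to 3.70, adjusted p 0.0522 to 0.0752, and without the mean-variance trend, adjusted p 0.0598).

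The 12 largest falls were Phf11a, Ms4a4c, Ly6c2, Ifit3b, Fcgr1, Ifi213, Ifit3, Acly, Phf11b, Ifi206, Tlr9 and Slc2a5, with log2 fold changes between -5.00 and -3.62. Acly and Slc2a5, the fructose transporter, are metabolic genes, and the others belong to interferon-stimulated or myeloid genes. Slc2a5 had 98.6, 80.1 and 123 in WT Cold and 1044, 1143 and 1571 in WT RT. The 5 falls with the smallest adjusted p were Thrsp, Acss2, Slc22a3, Ntrk3 and Abcd2. Slc22a3, a carrier of organic cations, had 363, 343 and 317 in WT Cold and 1729, 1559.7 and 1825 in WT RT (log2 fold change -2.32), Ntrk3, the receptor of neurotrophin-3, had 484, 429 and 458 in WT Cold and 2723, 2244 and 2925 in WT RT (log2 fold change -2.52), and Abcd2, a peroxisomal carrier of fatty acyl-CoA, had 1215, 1059.6 and 1038 in WT Cold and 3948, 3904 and 4526 in WT RT (log2 fold change -1.90). Among called genes, and in absolute terms, Lpl, Ucp1, Cdo1, Gmpr and Hspa8 gained the most normalized counts, and Scd1, Fasn, Acly, Thrsp and Tkt lost the most. Gmpr, which turns guanosine monophosphate into inosine monophosphate, had 40509, 47436 and 29529 in WT Cold and 3149, 3969 and 4788 in WT RT (log2 fold change 3.30 ± 0.20, SE, adjusted p = 0.000107). Cdo1, which oxidizes cysteine, had 72573, 69012 and 65851 in WT Cold and 29199, 23719.7 and 31216 in WT RT (log2 fold change 1.31 ± 0.11, SE, adjusted p = 0.000433).

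Genes of the thermogenic programme rose in part. Of 24 listed and tested, 13 were higher and 2 lower without overlap, against 22.8% of all genes in either direction. Of the 24, 6 were called higher and 0 lower (median log2 fold change 0.23). The number lower was 1 when scaled to the library total or the upper quartile, or without WT Cold library B, WT Cold library C or WT RT library B. Dio2, the deiodinase that makes active thyroid hormone inside the brown adipocyte, had 36977, 32253 and 21532 in WT Cold and 1981, 2097 and 3246 in WT RT. Every WT Cold library was above every WT RT library, and the log2 fold change was 3.63 ± 0.24 (SE; adjusted p = 0.000138). Ppargc1a, a coactivator of mitochondrial genes, had 11849, 6490.4 and 7491 in WT Cold and 1001, 1215 and 1723 in WT RT (log2 fold change 2.70 ± 0.26, SE, adjusted p = 0.00054). Ucp1, the uncoupling protein itself, had 263549, 272635 and 248550 in WT Cold and 101357, 147020 and 142782 in WT RT. Its groups were also apart, with a log2 fold change of 1.02 ± 0.16 (SE; adjusted p = 0.00344), just past the threshold: it was 0.99 without WT Cold library B, 0.85 without WT RT library A, 0.94 scaled to the library total and 0.99 scaled to the upper quartile. The other members called were the potassium channel Kcnk3 (log2 fold change 1.22), the transcription factor Cebpd (1.20) and the fatty acid elongase Elovl3 (1.17). Elovl3 lost its call in alternative fits (without WT Cold library B or WT RT library A, log2 fold change 0.84 to 1.14, adjusted p 0.024 to 0.0624, and without the mean-variance trend, adjusted p 0.0541). The adipocyte factors Cebpa and Ppara had adjusted p under 0.05 at log2 fold changes of -0.98 and -0.51, and Prdm16, Ebf2, Cidea and Pparg, which mark brown adipocytes, had log2 fold changes between -0.51 and 0.23, each with an adjusted p over 0.05. Among 12 tested genes of creatine and calcium cycling, which can make heat by consuming ATP, 1 was called higher and 0 lower (median 0.54). The number higher was 2 without WT Cold library C, WT RT library A or WT RT library B. The call was that of Ckb, a creatine kinase, with 7150.3, 8586 and 5306 in WT Cold and 1749, 1428 and 1423 in WT RT (log2 fold change 2.17 ± 0.17, SE, adjusted p = 0.000294).

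**Figure D3:**
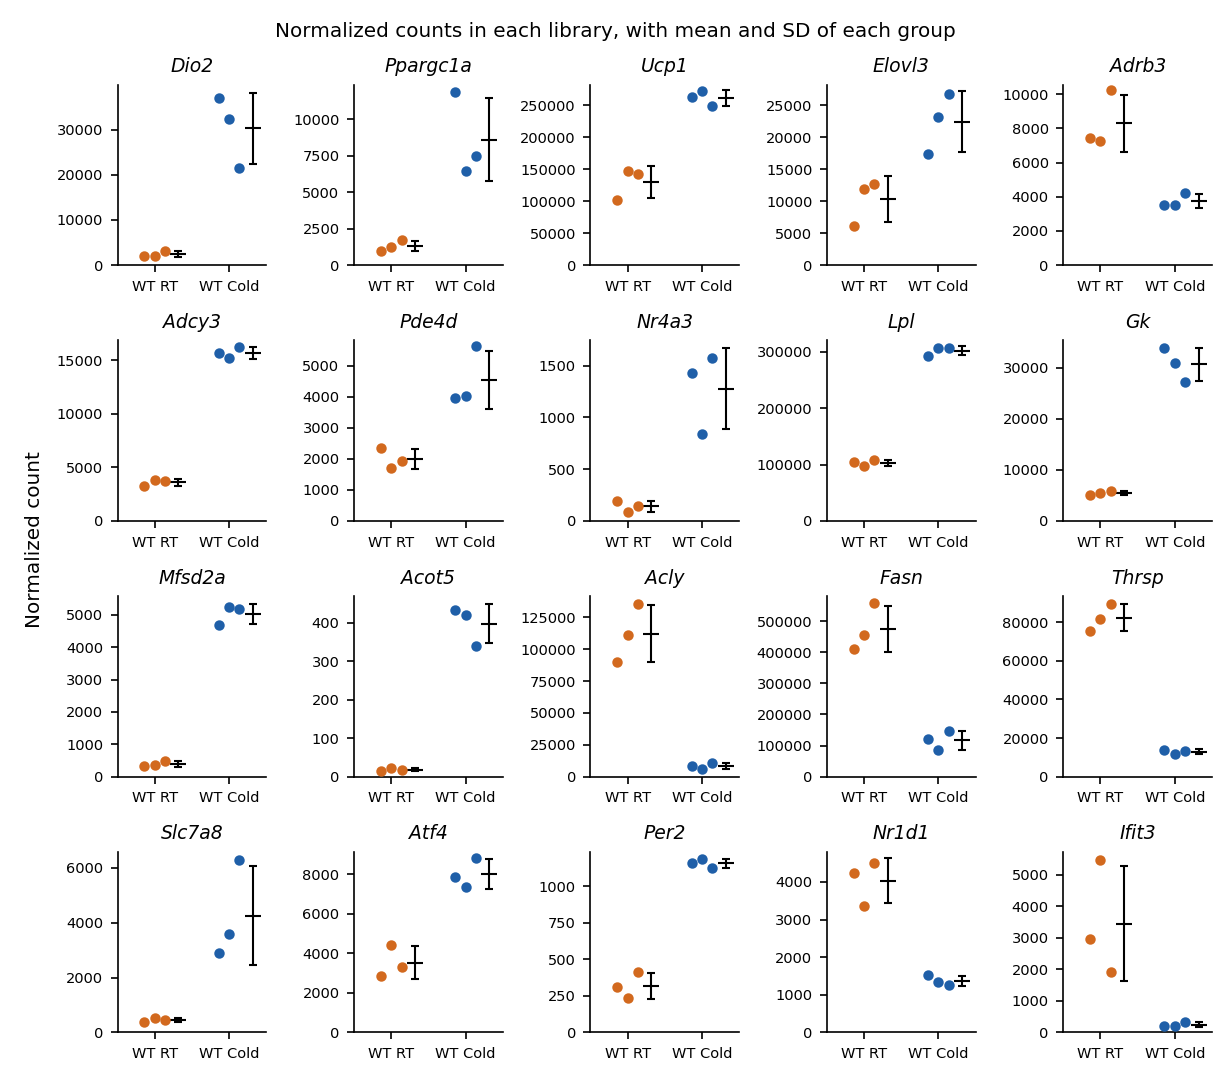
Normalized count (vertical axes, each from 0) of 20 genes in each of 3 WT RT libraries (orange) and 3 WT Cold libraries (blue), with the mean and SD of each group in black. The groups do not overlap in any of the 20, with the WT Cold libraries above in all but Adrb3, Acly, Fasn, Thrsp, Nr1d1 and Ifit3, which lie below. All 20 are called genes picked with their values known, and 45.5% of all genes did not overlap.

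Of 35 listed and tested genes of adrenergic and cAMP signalling, 4 were called higher and 2 lower (median log2 fold change 0.21). Adrb3, the main β-adrenergic receptor of adipocytes, had 3512, 3540.1 and 4216 in WT Cold and 7456, 7244 and 10225 in WT RT and fell, with a log2 fold change of -1.13 ± 0.14 (SE; adjusted p = 0.00155). It was -0.97 without WT RT library C, and Adrb1 had a log2 fold change of -0.28 (adjusted p = 0.243). Adcy3, an adenylyl cyclase, had 15666, 15183 and 16231 in WT Cold and 3231, 3852 and 3747 in WT RT, which is narrow within each group and far apart between them (log2 fold change 2.12 ± 0.08, SE, adjusted p = 2.27e-05). The phosphodiesterases that degrade cAMP included Pde7b and Pde4d among the rises. Pde4d had 3959, 4032 and 5628 in WT Cold and 2336, 1702 and 1918 in WT RT (log2 fold change 1.19), and Pde7b had 2636, 2535 and 3191 in WT Cold and 937, 829 and 903 in WT RT (log2 fold change 1.64). Gpr3, a receptor that raises cAMP without a ligand, was at low counts, with 36.0, 35.8 and 17.3 in WT Cold and 3.71, 0.906 and 11.8 in WT RT, and lost its call in alternative fits (without WT Cold library A, WT Cold library B, WT RT library A or WT RT library B, log2 fold change 1.91 to 2.56, adjusted p 0.066 to 0.0978, and without the mean-variance trend, adjusted p 0.0543). The soluble cyclase Adcy10 was called lower at a log2 fold change of -1.89.

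Some early response genes were called higher at 8 h. Of 22 listed, 21 were tested, 4 were called higher and 0 lower (median 0.43), against 2.99 and 5.15% of all genes, and 10 were higher and 0 lower at an adjusted p under 0.05. Nr4a3, an orphan nuclear receptor induced by cAMP, had 1429, 837 and 1571 in WT Cold and 195, 86.1 and 145 in WT RT (log2 fold change 3.19 ± 0.33, SE, adjusted p = 0.00075). Its relatives Nr4a1 and Nr4a2 had 0.45 and 0.30, with adjusted p of 0.428 and 0.518. Maff (1.42), Fosb (1.29) and Fosl2 (1.21) were the other rises, while Fos was at a log2 fold change of -0.02 (adjusted p = 0.978) and Egr1 at -0.47 (adjusted p = 0.482). Fosb was not called in some alternative fits (without WT Cold library B or WT RT library A, log2 fold change 1.11 to 1.23, adjusted p 0.0536 to 0.0637). Of 15 tested feedback inhibitors of the MAP kinase pathway, 3 were called higher and 0 lower (median 0.45), and 5 were called higher without WT RT library C. Spry4 had 1537, 1627 and 728 in WT Cold and 188, 308 and 248 in WT RT (log2 fold change 2.32), and the phosphatases Dusp1 and Dusp6 had 1.21 and 1.15, the latter 0.97 without WT Cold library A.

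The cAMP response element, the palindrome TGACGTCA, was found within 250 bases before the RefSeq start of 3 of these called genes, shown because cAMP is the second messenger of the adrenergic signal. The letters were searched on both strands, are in capitals, and are shown with 25 bases on either side where the window allows, on the gene's strand, from RefSeq build GRCm38.p6.
Dio2, chr12:90739101-90739158, minus strand: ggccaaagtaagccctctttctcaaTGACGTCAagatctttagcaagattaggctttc
Maff, chr15:79347466-79347519, plus strand: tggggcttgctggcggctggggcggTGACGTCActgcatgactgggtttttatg
Dusp1, chr17:26508583-26508640, minus strand: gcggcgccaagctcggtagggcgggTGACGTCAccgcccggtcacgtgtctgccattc
It was present in 2.82% of the 11940 tested genes with a promoter in the RefSeq table, in 6 of the 357 called higher and in 8 of the 601 called lower. No share of called genes was above that of all genes, and the 3 sequences are descriptions of where the letters stand.

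Some genes that bring triglyceride-derived fatty acids into the tissue rose. Of 19 tested, 3 were called higher and 1 lower (median 0.23). Lpl, the lipase that frees fatty acids from lipoproteins in the capillary, had 292270, 306854 and 306055 in WT Cold and 105007, 97085 and 107780 in WT RT, the largest gain of normalized counts of any called gene (log2 fold change 1.55 ± 0.10, SE, adjusted p = 0.000131). Gpihbp1, which holds that lipase on the endothelium, had 5231, 5380.2 and 5457 in WT Cold and 2415, 2325 and 2690.1 in WT RT (log2 fold change 1.11). Fabp3, an intracellular fatty acid carrier, had 54046, 51986 and 39581 in WT Cold and 14004, 14991 and 15385 in WT RT (log2 fold change 1.70), whereas Fabp5 had 1755, 1851 and 1633 in WT Cold and 3266, 4238 and 4815 in WT RT and fell (-1.22). The scavenger receptor Cd36 had an adjusted p of 0.00403 at a log2 fold change of 0.62, under the fold threshold.

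Of 20 tested genes that hold or release the lipid store, 1 was called higher and 1 lower (median 0.12), close to the 8.14% of all genes called. G0s2, an inhibitor of adipose triglyceride lipase, had 15441, 16625 and 13816 in WT Cold and 6591, 4924 and 7126 in WT RT (log2 fold change 1.31), and Pnpla3, a lipase relative controlled by lipogenic signals, had 1783, 1321 and 911 in WT Cold and 5157, 7541 and 7932 in WT RT (log2 fold change -2.39). Lipe, the hormone-sensitive lipase, was at -0.82 (adjusted p = 0.00314) and Pnpla2, adipose triglyceride lipase, at 0.11 (adjusted p = 0.427). In glycerol and triglyceride synthesis, 14 of 15 listed genes were tested, 2 were called higher and 1 lower (median -0.12). Gk, the glycerol kinase that lets a brown adipocyte reuse glycerol, had 33788, 30842 and 27259 in WT Cold and 5091, 5506 and 5757 in WT RT (log2 fold change 2.49 ± 0.10, SE, adjusted p = 2.12e-05). Lpin3 was the other rise (1.25), and Agpat2 the fall (-1.05), which was not called in some alternative fits (without WT Cold library C, WT RT library B or WT RT library C, log2 fold change -0.98 to -0.96, adjusted p 0.00319 to 0.0115).

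None of 28 tested genes of fatty acid oxidation was called (median 0.05). They lay between -0.47 (Acaa1a) and 0.60 (Slc22a5), and 3 were higher and 4 lower at an adjusted p under 0.05. Cpt1b, the muscle and brown adipose form of the mitochondrial entry enzyme, was at 0.12 with a 95% confidence interval from -0.17 to 0.41. By contrast, acyl-CoA thioesterases, which split acyl-CoA into free fatty acid and coenzyme A, were called higher in 5 and lower in 1 of 13 tested (14 listed, median 0.52). Acot5, a peroxisomal member, had 432, 419 and 339 in WT Cold and 13.9, 22.7 and 17.7 in WT RT (log2 fold change 4.40 ± 0.23, SE, adjusted p = 6.6e-05). Acot1, the cytosolic member, had 2041, 1429 and 2892 in WT Cold and 707, 613 and 485 in WT RT (log2 fold change 1.77). Them4, Acot6 and Acot4 were called at 1.33, 1.16 and 1.06, the last not in some alternative fits (without WT Cold library A or WT RT library A, log2 fold change 0.89 to 0.96, adjusted p 0.0128 to 0.0192, and scaled to the library total, log2 fold change 0.98). Acot11, also known as a brown adipose thioesterase, fell with 5919, 4842 and 5364 in WT Cold and 11165, 14951 and 19239 in WT RT (log2 fold change -1.46). Acot1 to Acot6 are closely similar in sequence, and uniquely counted reads can be divided unevenly among them.

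De novo fatty acid synthesis was the metabolic list with the most falls. Of 19 tested, 12 were called lower and 1 higher, against 5.15 and 2.99% of all genes (median log2 fold change -1.23), and 15 were lower without overlap, against 22.8% of all genes. Acly, which makes cytosolic acetyl-CoA from citrate, had 8755, 6297 and 10789.7 in WT Cold and 90273, 110925 and 135352 in WT RT (log2 fold change -3.72 ± 0.21, SE, adjusted p = 8.33e-05). Acss2, which makes it from acetate, had 2553, 2332 and 2809.8 in WT Cold and 12708, 13928 and 14551 in WT RT (-2.42 ± 0.09, SE, adjusted p = 2.12e-05). The committed step followed, with Acaca, acetyl-CoA carboxylase, at -2.06, and Fasn, fatty acid synthase, had 121902, 84144 and 145285 in WT Cold and 410519, 456637 and 556886 in WT RT (-2.04 ± 0.22, SE, adjusted p = 0.000785). Thrsp, a nuclear protein that marks lipogenic cells, had 13915, 11767 and 13329 in WT Cold and 75644, 81559 and 89699 in WT RT (-2.66). The citrate carrier Slc25a1 (-1.83), malic enzyme Me1 (-1.59) and the desaturases Scd1 (-1.29) and Scd2 (-1.71) were called lower as well. Among regulators, Srebf1 was at -1.23, Insig1 at -1.17 and Mlxipl, the carbohydrate response factor, at -1.06. Mlxipl was not called in some alternative fits (without WT Cold library A or WT RT library C, log2 fold change -0.95 to -0.90, adjusted p 0.0127 to 0.0166). The rise was Elovl7, an elongase of saturated fatty acids, with 257, 254 and 141 in WT Cold and 49.1, 97.9 and 43.3 in WT RT (log2 fold change 1.80).

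In the pentose phosphate pathway, a list added after the fall of Tkt was seen, 2 of 9 tested genes (10 listed) were called lower and 0 higher (median -0.45). Tkt, transketolase, had 30548, 21965 and 25027 in WT Cold and 78761, 92822 and 109944 in WT RT (log2 fold change -1.86), and Pgd, 6-phosphogluconate dehydrogenase, had 6981, 6052 and 6892 in WT Cold and 16812, 21939.8 and 26346 in WT RT (-1.69), while Taldo1 and G6pdx were at -0.97 and -0.80 with adjusted p of 0.000635 and 0.00693. In cholesterol synthesis, 1 of 19 was called lower and 0 higher (median -0.33), a share close to the 5.15% of all genes. This was Nsdhl (-1.65), and 4 were called lower without WT RT library A, 3 without WT Cold library C or scaled to the library total, and 2 scaled to the upper quartile. Fdft1, the first enzyme committed to sterols, was at -0.99 (adjusted p = 0.0485).

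Some glucose transporters were called, and most genes of glycolysis were not. Of 34 tested, 5 were higher and 10 lower at an adjusted p under 0.05. Called were 2 higher and 1 lower (median -0.04), a share close to the 8.14% of all genes. The rises were the insulin-independent transporters Slc2a1, with 920.4, 1051 and 941 in WT Cold and 411, 532 and 446 in WT RT (1.07, and 0.99 without WT RT library A and 0.99 scaled to the library total), and Slc2a3 (1.28). The insulin-dependent transporter Slc2a4 was at 0.15 (adjusted p = 0.216), and Pdk1, a kinase that inhibits pyruvate dehydrogenase, fell (-1.21). The number lower was 2 without WT Cold library A or WT RT library A. Hk2 was at 0.84 and Eno1 and Pfkl at -0.84 and -0.78, each with an adjusted p under 0.05 and under the fold threshold. In insulin and IGF signalling, 4 of 22 were called higher and 3 lower (median 0.38). Socs2, a suppressor of growth hormone signalling, had 1586, 1779 and 1526 in WT Cold and 231, 225 and 272 in WT RT (2.75), and Irs2, a substrate of the insulin receptor, had 2320.4, 2074 and 3259 in WT Cold and 1430.4, 532 and 598 in WT RT (1.70). Foxo1 (1.23) and Igfbp3 (1.62) were the other rises. The adaptor Grb14, which inhibits the insulin receptor, fell by 1.74 on the log2 scale, and Pik3r1 and Igfbp5 were at -1.24 and -1.83.

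The integrated stress response and amino acid transport were the pathways the study was designed around. The response works through translation of the factor ATF4, which then raises genes for amino acid synthesis and uptake. Of 29 tested targets, 5 were called higher and 1 lower (median 0.39). The number higher was 3 without WT RT library C or the mean-variance trend. The number lower was 3 scaled to the library total. It was 2 without WT RT library B or any 1 WT Cold library, with DESeq2, a pseudocount of 5 or all 9 libraries in 1 fit, and scaled to the upper quartile. Atf4 mRNA had 7872, 7363 and 8838 in WT Cold and 2864, 4442 and 3301 in WT RT (1.20 ± 0.16, SE, adjusted p = 0.00176). Ddit4, an inhibitor of mTORC1, had 3043, 3103 and 9054 in WT Cold and 1733, 873 and 1668 in WT RT (1.69), and Sesn2, an amino acid sensor, was at 1.26 (0.99 without WT Cold library C). Gdf15, a stress hormone, had 199, 181 and 142 in WT Cold and 59.3, 139.6 and 53.1 in WT RT. Ddit4 and Gdf15 lost their calls in alternative fits (without WT RT library B or WT RT library C, log2 fold change 1.37 to 1.84, adjusted p 0.0516 to 0.0831, and without the mean-variance trend, adjusted p 0.0663, and for Gdf15 without WT Cold library A, WT Cold library B, WT RT library A or WT RT library C, log2 fold change 0.91 to 1.13, adjusted p 0.124 to 0.135, and with edgeR, adjusted p 0.0727, and without the mean-variance trend, adjusted p 0.0835, and scaled to the library total, adjusted p 0.0694, and scaled to the upper quartile, adjusted p 0.0555). The enzymes of serine synthesis, which ATF4 is known to raise, went the other way, with Psph called lower (-1.16) and Phgdh and Psat1 at -0.96 (adjusted p = 0.00221) and -0.56 (adjusted p = 0.0342). Asns and Trib3, other ATF4 targets, were at 0.39 (adjusted p = 0.0409) and 0.84 (adjusted p = 0.201), and Ddit3 at 0.15 (adjusted p = 0.322).

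Among amino acid transporters, 30 of 31 listed were tested, 5 were called higher and 1 lower (median 0.22). Slc7a8, the light chain of a neutral amino acid exchanger, had 2896, 3596 and 6291 in WT Cold and 364, 534 and 454 in WT RT, with WT Cold library C the highest (3.18 ± 0.27, SE, adjusted p = 0.000409). Its heavy chain partner Slc3a2 had 6526, 7203 and 9387 in WT Cold and 2114, 3191 and 2365 in WT RT (1.60). Slc7a5, another light chain of Slc3a2, had 207, 149.6 and 204 in WT Cold and 69.5, 125 and 127 in WT RT (0.83, adjusted p = 0.0535). Slc43a2 (1.27), Slc38a2 (1.12) and the glutamate carrier Slc1a1 (1.12) were called, the last not in some alternative fits (without WT Cold library B or WT RT library A, log2 fold change 0.96 to 0.98, adjusted p 0.0386 to 0.0421), and Slc38a10 fell (-1.63). Beyond uptake, 1 of 18 tested genes of branched-chain amino acid breakdown was called higher and 0 lower (median -0.01). This was Bcat2, the mitochondrial aminotransferase (1.09). The mitochondrial carrier Slc25a44, which imports these amino acids, was at -0.31 (adjusted p = 0.0644).

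No call was made among 35 nuclear-encoded genes of the respiratory chain, 13 genes of the mitochondrial genome and 14 genes of the citric acid cycle, with median log2 fold changes of 0.21, 0.50 and 0.11. At an adjusted p under 0.05 alone, 11, 7 and 3 of them were higher and 0 lower. Without overlap between groups, 26, 11 and 6 were higher and 0 lower, where 22.8% of all genes were higher without overlap and 22.8% lower. Cycs, cytochrome c, had 39746, 40899.5 and 38604 in WT Cold and 29559, 29363 and 30689 in WT RT (0.41 ± 0.07, SE, adjusted p = 0.00538). The mitochondrially encoded mt-Co2 was at 0.64 ± 0.13 (SE, adjusted p = 0.00986) and mt-Co1 at 0.12 ± 0.19 (SE, adjusted p = 0.664), 2 subunits of the same complex.

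**Figure D4:**
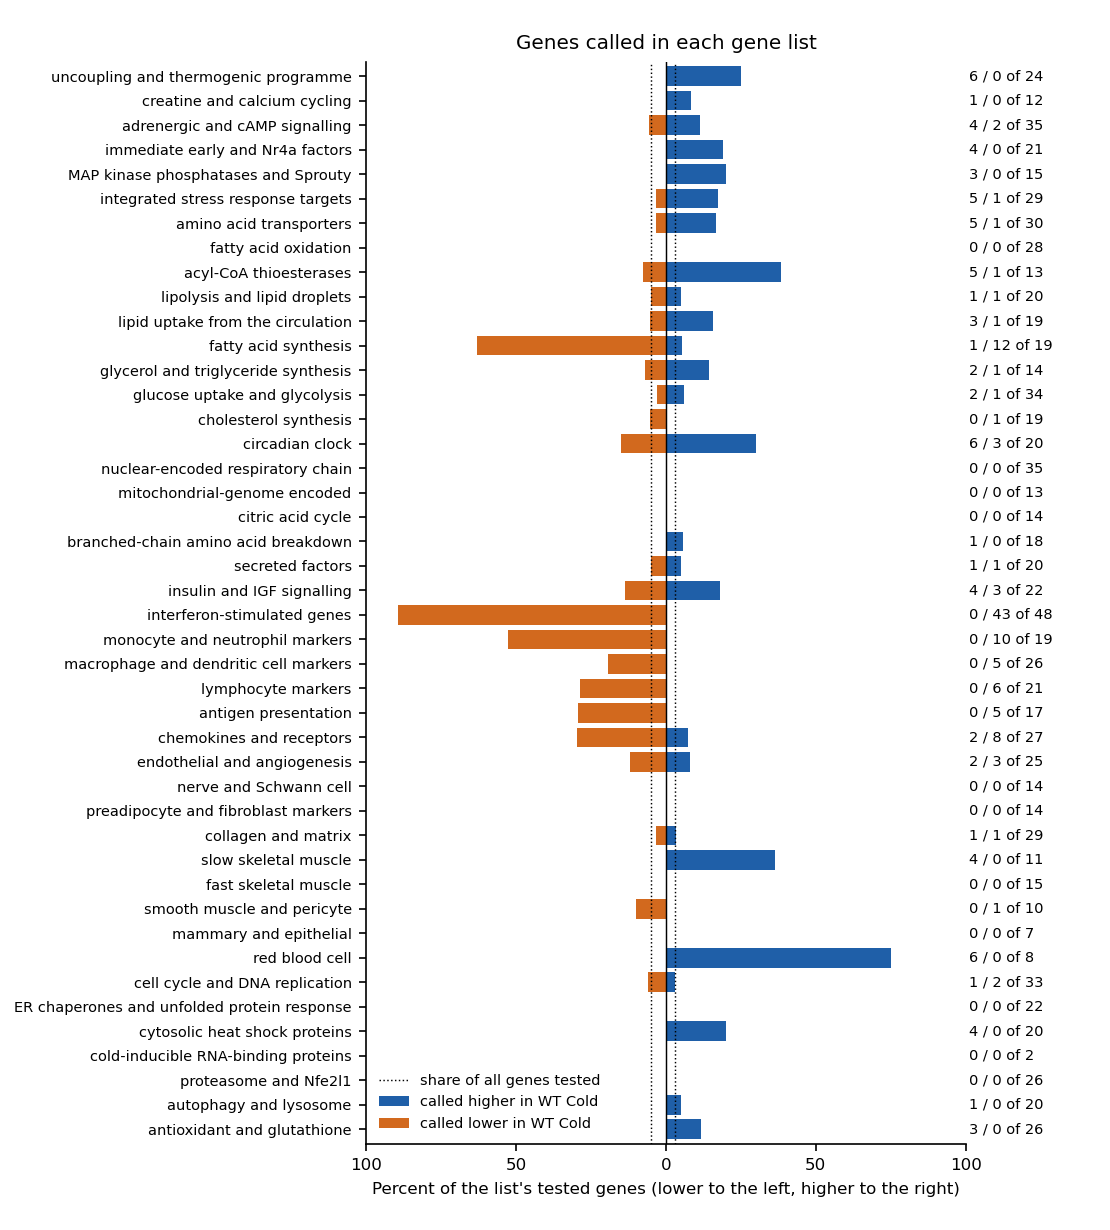
For each gene list (rows), bars give the percent of its tested genes called higher (blue, to the right) or lower (orange, to the left) in WT Cold, with dotted lines at the 2.99 and 5.15% of all genes and the numbers called higher, called lower and tested at the right. Left out are the 4 lists added after values were seen, the sex-linked transcripts and a list of genes that the authors name. Among the lists drawn, the longest bars to the left are interferon-stimulated genes and fatty acid synthesis, and the longest to the right is red blood cell transcripts.

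Core clock genes changed in both directions. The clock is a loop in which ARNTL and CLOCK drive the Per and Cry repressors and Nr1d1, and NR1D1 in turn represses Arntl. Of 20 tested, 6 were called higher and 3 lower (median 0.34). Nfil3, a repressor at D-box elements, had 1297, 2028 and 2639 in WT Cold and 329.8, 295 and 437 in WT RT (2.45), and Usp2, a clock-controlled deubiquitinase, was at 2.06. Per2 had 1156, 1187 and 1123 in WT Cold and 308, 235 and 414 in WT RT (1.89 ± 0.19, SE, adjusted p = 0.000638), with Per1 at 1.11 and Cry1 at 1.65. Arntl had 563, 540.3 and 291 in WT Cold and 126, 179 and 152 in WT RT (1.56), while Nr1d1 had 1523, 1330.3 and 1265 in WT Cold and 4227, 3371 and 4515 in WT RT and fell (-1.55 ± 0.12, SE, adjusted p = 0.000309). Dbp (-1.22) and Bhlhe40 (-1.20) were the other falls. Per1 was 0.82 without WT RT library B and Dbp -0.96 without WT RT library A. Per3, Nr1d2 and Clock were at -0.67, -0.27 and 0.40 with adjusted p over 0.05. Both groups were sampled at a matched hour, so each is 1 time point and no phase can be read from them. The E-box CACGTG, through which ARNTL and CLOCK act, was found before the start of 5 of 17 clock genes with a promoter in the table, against 9.42% of all genes. It was in 10.4% of genes called higher, 6.49% of those called lower, 4 of 16 genes of fatty acid synthesis, 4 of 17 early response genes and 7 of 25 glucocorticoid-responsive genes. The sites of Per1 and Cry1 are given to show the letters searched.
Per1, chr11:69098758-69098813, plus strand: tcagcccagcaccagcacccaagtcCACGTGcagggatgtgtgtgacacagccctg
Cry1, chr10:85185084-85185139, minus strand: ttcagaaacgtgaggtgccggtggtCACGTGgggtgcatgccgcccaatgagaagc
The other genes of the list that held it were Tef, Ciart and Bhlhe41. Ciart and Tef were at 0.83 and 0.74 and Bhlhe41 at -0.57, and none of the 3 was called.

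Interferon-stimulated genes made up the list with the largest share of falls. These genes are switched on by type I interferon and encode antiviral proteins. Of 48 listed and tested, 43 were called lower and 0 higher (median log2 fold change -2.13), against 5.15% of all genes called lower. In 46 the groups did not overlap and WT Cold was lower, as in 22.8% of all genes. Without WT Cold library A or C, 1 was called higher. Ifit3 had 191, 209.6 and 325 in WT Cold and 2968, 5462 and 1923 in WT RT (-3.74 ± 0.36, SE, adjusted p = 0.000591). Isg15, a ubiquitin-like modifier, had 151, 159 and 235 in WT Cold and 1073, 1953 and 806 in WT RT (-2.73 ± 0.32, SE, adjusted p = 0.00114). Irf7, which amplifies the interferon response, had 418, 438 and 512 in WT Cold and 2365, 4392 and 1675 in WT RT (-2.51), and Usp18, its brake, had 105, 88.5 and 227 in WT Cold and 1065, 1374 and 651 in WT RT (-2.93). In all 4, WT RT library B was the highest and WT RT library C the lowest of its group, and every WT Cold library was below all 3. The sensors Ddx58 and Ifih1 (-1.99 and -1.48) and the factor Stat2 (-1.41) were called lower too. The 5 without a call were Ifi27l2a, at 0.89 with an adjusted p of 0.0167, and Irf1, Ifi207, Irf9 and Oas1g, between -1.01 and -0.45. Ifi35 was at -0.91 without WT RT library B and at -0.93 without WT Cold library A, and Ifi204 lost its call in alternative fits (without WT Cold library A, WT Cold library B, WT RT library A or WT RT library B, log2 fold change -1.40 to -0.94, adjusted p 0.0422 to 0.0817, and without the mean-variance trend, adjusted p 0.0608). Some members, such as Ifit3 with Ifit3b and the Phf11 genes, are near-identical copies among which unique reads may be divided unevenly.

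The interferon-stimulated response element, searched as GAAA, any 2 bases and GAAA on both strands, was present within 250 bases before the RefSeq start of 20 of the 36 genes of this list that had a promoter in the table (55.6%), against 3.42% of all 11940, 10.1% of those called lower and 3.08% of those called higher. Of these promoters, 4 are shown, since this element is the known site of the interferon-activated complex, with the matched letters in capitals, on the gene's strand, from RefSeq build GRCm38.p6.
Ifit3, chr19:34583382-34583441, plus strand: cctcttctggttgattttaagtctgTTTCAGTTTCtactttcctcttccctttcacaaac
Isg15, chr4:156200850-156200909, minus strand: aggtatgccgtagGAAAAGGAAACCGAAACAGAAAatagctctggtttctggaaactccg
Oas3, chr5:120777700-120777759, minus strand: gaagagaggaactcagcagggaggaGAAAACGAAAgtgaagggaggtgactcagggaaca
Gbp2, chr3:142620579-142620638, plus strand: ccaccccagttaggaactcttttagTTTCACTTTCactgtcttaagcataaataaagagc
In Isg15 the capitals are 3 overlapping matches, and in Ifit3 and Gbp2 the match lies on the other strand. Oas3 and Gbp2 were at log2 fold changes of -3.12 and -1.56. A match says only that these letters are there.

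**Figure D5:**
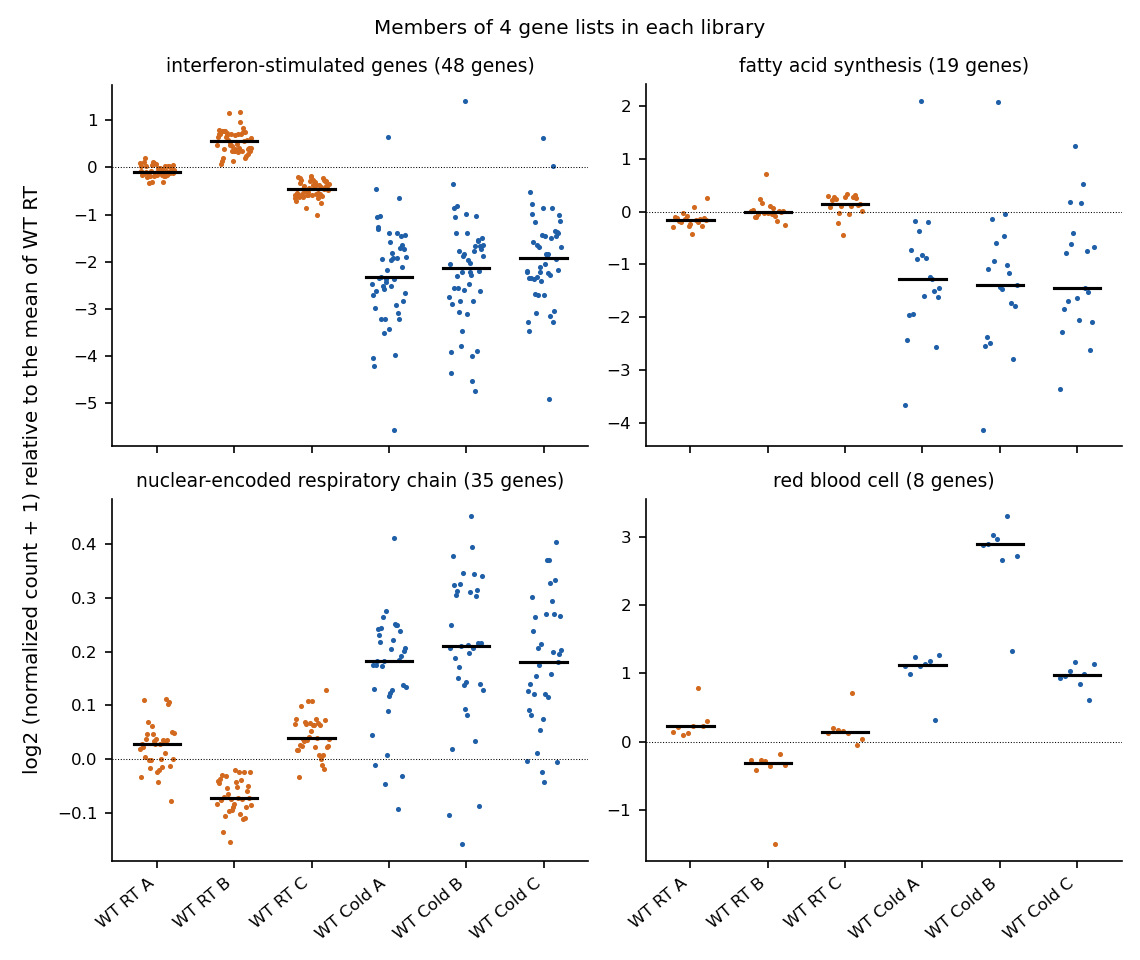
Each point is 1 gene of a list in 1 library, as log2(normalized count + 1) minus the mean of that gene in the 3 WT RT libraries (vertical axes, which differ between panels), with the median over the list as a black bar. The medians of interferon-stimulated genes and fatty acid synthesis lie lower in all 3 WT Cold libraries, that of the respiratory chain lies slightly higher, and that of red blood cell transcripts is highest in WT Cold library B.

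Immune cell markers were called lower in part. Of 19 monocyte and neutrophil markers tested (20 listed), 10 were called lower and 0 higher (median -1.35), with 6 lower without WT Cold library B, WT RT library A or WT RT library B, and 1 higher without WT Cold library A. Ly6c2, the surface marker of inflammatory monocytes, had 20.5, 15.8 and 46.6 in WT Cold and 391, 1513 and 355 in WT RT (-4.53 ± 0.60, SE, adjusted p = 0.00189). Their chemokine receptor Ccr2 had 120.2, 93.7 and 159 in WT Cold and 729, 1613 and 613 in WT RT (-2.87). The neutrophil genes S100a8 and S100a9 were at 0.60 and 0.85 with adjusted p of 0.473 and 0.187. Of 26 macrophage and dendritic cell markers, 5 were called lower and 0 higher (median -0.58), and 9 were lower without WT Cold library C or when scaled to the library total, and 8 without WT RT library C. The number higher was 1 without WT Cold library B or WT RT library A. Fcgr1, the high-affinity IgG receptor, which interferon also induces, had 45.2, 50.6 and 135 in WT Cold and 776, 2229 and 738 in WT RT (-3.98), and Cd68 had 320.5, 251 and 370.5 in WT Cold and 1034, 1896 and 893 in WT RT (-1.96). Resident macrophage genes Mrc1, Cd163 and Vsig4 were at -0.31, 0.89 and -0.07, with adjusted p over 0.05.

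In lymphocyte markers, 21 of 28 listed were tested, 6 were called lower and 0 higher (median -0.61). Those called were Gzmb (-2.56), Cd247 (-2.01), Il7r (-1.86), Nkg7 (-1.54), Ighm (-1.22) and Lck (-1.14), genes of T cells, natural killer cells and, for Ighm, B cells. Each but Ighm lost its call in at least 1 leave-one-out fit, Lck and Gzmb in 5 of 6. Lck was also not called with DESeq2 (adjusted p = 0.0596) or a pseudocount of 5 (-0.96), nor Gzmb without the mean-variance trend (adjusted p = 0.0601). At any size, 15 of the 21 had a negative log2 fold change. Of the same 21, the number called lower was 2 without WT Cold library B, WT RT library B or WT RT library C, and 3 without WT RT library A. Among genes averaging 50 or more only 5 were tested and 2 called lower, and with all 9 libraries in 1 fit 14 were tested and 3 called lower. The T and B cell genes Cd3e, Cd8a and Cd79a were at -1.02, -0.72 and 0.33, with adjusted p over 0.05. For antigen presentation, 5 of 17 were called lower and 0 higher (median -0.72), and 8 were lower without WT RT library C. Tap1, which feeds peptides to class I molecules, had 323, 257 and 401 in WT Cold and 1081, 1391 and 934 in WT RT (-1.80), while the class II genes H2-Aa and H2-Ab1 were at -0.37 and -0.39 with adjusted p over 0.05. Chemokines and their receptors had 27 of 30 listed tested, with 8 called lower and 2 higher (median -0.75). Cxcl10, an interferon-induced chemokine, had 38.0, 27.4 and 79.1 in WT Cold and 267, 767 and 197 in WT RT (-2.95), and the ligands Ccl2, Ccl7, Ccl8 and Ccl12 were at -2.07, -2.48, -2.66 and -2.80. The number lower was 5 without WT Cold library B and 4 without WT Cold library A, WT RT library B or WT RT library C, and 4 without the mean-variance trend, where Ccl2 and Ccl7 had adjusted p of 0.0769 and 0.0683. Cxcl13 (1.20) and Ackr3 (1.26) were the rises.

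Some vascular and stromal genes were called. Of 25 endothelial and angiogenesis genes, 2 were called higher and 3 lower (median 0.24). The apelin receptor Aplnr had 43.1, 56.9 and 30.3 in WT Cold and 213, 187 and 295 in WT RT (-2.41 ± 0.28, SE, adjusted p = 0.00114), and its ligand Apln was also called lower (-1.35), as was Angpt1 (-1.91). Sox17, an arterial transcription factor, had 698, 834 and 1287 in WT Cold and 352, 294 and 404 in WT RT (1.39), and Pgf rose at 1.34 but lost its call in alternative fits (without WT Cold library A, WT Cold library B, WT RT library B or WT RT library C, log2 fold change 1.05 to 1.37, adjusted p 0.058 to 0.0702). The pan-endothelial Pecam1 and Cdh5 were at 0.66 (adjusted p = 0.00525) and 0.30 (adjusted p = 0.079). No preadipocyte or fibroblast marker was called among 14 tested (median -0.30), although 1 was lower without WT Cold library C, and 5 were lower at an adjusted p under 0.05, among them Dpp4 (-0.84) and Cd34 (-0.74). In collagen and matrix, 1 of 29 was called higher, Timp4 (1.42), and 1 lower, Col15a1 (-1.92; list median -0.29). The number higher was 2 without WT RT library B, with DESeq2 and with all 9 libraries in 1 fit. The basement membrane chains Col4a1 and Col4a2 were at 0.67 and 0.75, and the Col6a1, Col6a2 and Col6a3 chains between -0.82 and -0.68, each with an adjusted p under 0.05. Of 14 nerve and Schwann cell markers none was called (median 0.34), but 1 was higher without WT RT library A, and of 10 smooth muscle and pericyte markers 1 was called lower and 0 higher (median 0.63, but 0.25 without WT RT library C and 0.96 without WT RT library A). This was Cspg4 (-1.0005), which was not called in some alternative fits (without WT Cold library C, WT RT library A or WT RT library C, log2 fold change -0.97 to -0.87, adjusted p 0.00168 to 0.0144, and with DESeq2, just under the fold threshold, and with a pseudocount of 5, just under the fold threshold).

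Slow muscle and red blood cell transcripts were called higher in part. Of 11 slow muscle genes, 4 were called higher and 0 lower (median 0.97), with 7 higher without WT Cold library C and 1 with all 9 libraries in 1 fit. Myl2, the slow myosin light chain, had 2824, 2508 and 1904 in WT Cold and 919.9, 1134 and 1134 in WT RT (1.17 ± 0.16, SE, adjusted p = 0.00192). It was not called with all 9 libraries in 1 fit (adjusted p = 0.124). None of 15 fast muscle genes was called (median 0.24), and Myh4, the fast myosin, had 18504, 15766 and 10729 in WT Cold and 12581, 11472 and 10882 in WT RT (0.33, adjusted p = 0.216). Slow muscle genes took up between 0.0990 and 0.154% of the counts in WT Cold and between 0.0763 and 0.0866% in WT RT. Of 8 red blood cell transcripts, 6 were called higher and 0 lower (median 1.68, and 1.05 without WT Cold library B), none of them without WT RT library B or WT RT library C, and 1 without WT RT library A or the mean-variance trend. The β-globin Hbb-bs had 10643, 36601 and 9244 in WT Cold and 4825, 3717 and 5068 in WT RT (1.77 ± 0.47, SE, adjusted p = 0.0264), with WT Cold library B above the other 5. Hba-a1 with Hba-a2 and Hbb-bs with Hbb-bt are near-identical pairs. Of 7 mammary and other epithelial genes tested (10 listed), none was called (median 0.86, and 0.46 without WT RT library C). However, 3 were called higher without WT Cold library C, 2 without WT RT library B, and 1 without WT Cold library A or with DESeq2.

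Genes of several stress systems were listed. Of 20 cytosolic heat shock genes, 4 were called higher and 0 lower (median 0.44). All 20 had a positive log2 fold change, 9 were higher at an adjusted p under 0.05, and 11 were higher without overlap, against 22.8% of all genes. Hspa8, the constitutive member of the HSP70 family, had 76468, 50800.4 and 35253 in WT Cold and 19687, 17767 and 23188 in WT RT (1.36 ± 0.25, SE, adjusted p = 0.00709), and the inducible Hspa1a had 706, 364 and 432 in WT Cold and 141, 200.3 and 170.2 in WT RT (1.51). The cochaperone Bag3 (1.18) and Hspa1b (1.04), a near-identical copy of Hspa1a, were the others, and Hspa1b lost its call in some alternative fits (without WT Cold library A or WT RT library C, log2 fold change 0.82 to 0.94, adjusted p 0.0116 to 0.0283, and scaled to the library total, log2 fold change 0.95). No gene was called among 22 of the unfolded protein response of the endoplasmic reticulum (median -0.01) or among 26 of the proteasome (median 0.23). Of the proteasome genes, 23 of 26 had a positive log2 fold change, and 10 were higher and 0 lower at an adjusted p under 0.05. Without overlap, 19 were higher, against 22.8% of all genes. The cold-inducible RNA-binding proteins Cirbp and Rbm3, both tested and neither called (median 0.12), were at -0.14 (adjusted p = 0.513) and 0.39 (adjusted p = 0.0492). Cirbp had 479.7, 519 and 705 in WT Cold and 664, 617 and 579.5 in WT RT. Among 26 antioxidant genes, 3 were called higher and 0 lower (median 0.24). The metallothionein Mt2 had 6379.9, 7005 and 14605 in WT Cold and 1804, 1919 and 2120.4 in WT RT (2.16), Mt1 was at 1.97 and the haem oxygenase Hmox1 at 1.08 (0.87 without WT RT library A, and just under the threshold scaled to the library total). Of 20 genes of autophagy and the lysosome, 1 was called higher and 0 lower (median 0.15). This was Gabarapl1, with 12452, 11587 and 17344 in WT Cold and 6225, 5446 and 6391 in WT RT (1.18, and just under the threshold without WT Cold library C). In the cell cycle, 1 of 33 was called higher and 2 lower (median -0.18), the latter 1 without WT RT library C. The rise was the inhibitor Cdkn1a, with 10962, 13789 and 12261 in WT Cold and 2252, 2771 and 2984 in WT RT (2.21 ± 0.13, SE, adjusted p = 8.33e-05). The proliferation marker Mki67 was at 0.36 (adjusted p = 0.31).

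Secreted factors were called in few cases. Of 21 listed, 20 were tested, 1 was called higher, Gdf15, and 1 lower, Gpnmb (median 0.00). The number higher was 0 in some alternatives (without WT Cold library B or WT RT library C, without the trend, or scaled to the library total or upper quartile), 2 without WT RT library A or B, 3 without WT Cold library C and 4 with DESeq2. The number lower was 2 without WT Cold library C and 0 without WT RT library B. Fgf21, a hormone of liver and brown fat, had 38.0, 33.7 and 266 in WT Cold and 29.6, 19.9 and 16.7 in WT RT (1.66 ± 0.74, SE, adjusted p = 0.131). Its highest value was in WT Cold library C, and the other 5 libraries were at 38.0 or below. That library was also highest in the liver transcripts above and in Xist, and whether these are linked was not tested. Adipoq, adiponectin, was at -0.17 (adjusted p = 0.395), Vegfa at 0.44 (adjusted p = 0.00766) and Bmp8b at 0.70 (adjusted p = 0.284).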

How the data were processed

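RNA of brown adipose tissue was enriched with oligo-dT and sequenced as paired ends. The authors trimmed reads with Trimmomatic, aligned them with STAR, counted unique exon reads with featureCounts and normalized with DESeq2; the strand setting is not given in the sources used here, so antisense partners cannot be told apart. The deposited values are a signal: reads per gene over 1 size factor for each library, with columns of the authors' fold changes and p-values that were not used. Whole reads were recovered for all values (tolerance 0.01) and used only in the count-model alternatives.

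Genes were tested with limma 3.58.1 (R 4.3.3) with a mean-variance trend on log2(value + 1), WT Cold against WT RT, 6 libraries, Benjamini-Hochberg adjustment over 16679 genes. edgeR 4.0.16 and DESeq2 1.42.0 were alternatives, beside other pseudocounts (5 and 0.25), a filter at a mean of 50, other scalings, all 9 libraries in 1 fit and each library left out. The fit was tested on simulated data. The labels call the samples biological replicates, but library codes were not tied to mice, so p-values measure the spread between these libraries.

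Named genes were the members of the lists and, among called genes, the 12 largest rises and falls with a mean of at least 50, the 5 largest gains and losses of normalized count and the 5 smallest adjusted p in each direction. Members and lists were chosen with earlier results of these data known. The lists of liver, large intestine, glucocorticoid-responsive and pentose phosphate genes were added after values were seen. The alignment build given in the submitters' processing notes is GRCm39, while promoter sequences are RefSeq's for GRCm38.p6, matched by symbol for 11940 genes; those of 1 chromosome were not used. No coordinates were converted. Some items are not reported here.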

Additional observations from a re-analysis of the deposited data

How the results depend on the processing

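The count of 1357 called genes stayed within 1.5 times of itself with DESeq2 (1423), edgeR (1383), limma without the trend (1249), pseudocounts of 5 (1295) and 0.25 (1361), a mean of at least 50 (1033), scaling to the library total (1427, of which 406 higher and 1021 lower, with the median of all genes at -0.08) or the upper quartile (1384), and all 9 libraries in 1 fit (1222). With no fold threshold it was 4624 (2268 higher, 2356 lower), and with an absolute log2 fold change over 2 it was 276 (91 higher, 185 lower). Leaving out 1 library gave 1090 to 1854, with 404 to 697 higher and 658 to 1157 lower, the highest without WT Cold library C. Of 230 called genes among those named or listed, 170 kept the call under every alternative and none reversed. The log2 fold change of Irf4, not called with all 6 libraries (0.10), ranged from -1.11 (without WT Cold library C) to 0.76 when 1 library was left out; the cause was not tested. No paired analysis was possible because the columns carry no replicate numbers. Precision is limited by 3 libraries per group and, for genes of few reads such as Gpr3, by counting. The counts of list members under each alternative, given beside the lists, were chosen after seeing the data.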

Other observations

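Most of a list of genes that glucocorticoids are known to raise were called higher in WT Cold. The list was put together after these values were seen and overlaps the clock, stress and insulin lists, so its count is a description only. Of 32 tested, 24 were called higher and 0 lower (median log2 fold change 1.24). Fkbp5, a cochaperone of the glucocorticoid receptor, had 3074, 3266 and 4078 in WT Cold and 598, 504 and 710.4 in WT RT (2.52 ± 0.15, SE, adjusted p = 0.000102). Zbtb16, a transcriptional repressor, had 1198, 1352 and 2016 in WT Cold and 437, 247 and 273 in WT RT (2.26), and Tsc22d3, an anti-inflammatory leucine zipper protein, had 2559.8, 2841 and 3435 in WT Cold and 1404, 798 and 1353 in WT RT (1.35). The groups did not overlap in these 3. Errfi1, Glul, Lpin1, Tgm2, Nr3c1, Lcn2, Pdk4 and Angptl4 were the 8 without a call, between -0.32 and 0.47, with the receptor gene Nr3c1 at -0.07. No hormone was measured in the data used here. Klf9 was called at 1.06 with all 6 libraries and was at 0.97 without WT RT library B, 0.99 without WT Cold library C and 0.98 scaled to the library total. Among the other calls, Fbxo32 and Sult1a1 were also lost in some alternatives, with log2 fold changes down to 0.92 and 0.89.

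The pattern GNACA, any 3 bases and TGTNC (N is any base), the letters of a glucocorticoid response element, stood within 250 bases before the start of 43 of 11940 genes with a RefSeq promoter (0.36%). It was in 11 of the 357 genes called higher (3.08%) and 2 of the 601 called lower (0.333%). The 11 were Car14, Fam107a, Gm30173, Kcna5, Map3k6, Mt1, Nctc1, Sgk1, Slc10a6, Tinagl1 and Trim63, with log2 fold changes between 1.01 and 3.57, and were noticed after the motif had been counted in all called genes. Of these, 4 are shown with the matched letters in capitals.
Sgk1, chr10:21993677-21993739, plus strand: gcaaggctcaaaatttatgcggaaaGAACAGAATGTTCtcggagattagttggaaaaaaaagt
Trim63, chr4:134314887-134314949, plus strand: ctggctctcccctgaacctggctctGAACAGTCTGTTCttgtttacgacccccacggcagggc
Fam107a, chr14:8309860-8309922, minus strand: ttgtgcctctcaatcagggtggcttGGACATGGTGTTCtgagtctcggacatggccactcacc
Mt1, chr8:94178970-94179032, plus strand: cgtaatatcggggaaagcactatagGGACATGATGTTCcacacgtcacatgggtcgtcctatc
Sgk1, a kinase that regulates ion channels, had 5827, 5569 and 5096 in WT Cold and 2646, 1965 and 1985 in WT RT (1.33), and Fam107a was called higher (2.31). A match does not show that a receptor binds there. Besides the patterns shown, a CCAAT box and a heat shock element were counted. They stood before 38.7 and 0% of genes called higher, against 39.6 and 0.469% of all genes.

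Among the large intestine transcripts, 7 were called higher in WT Cold, namely Gucy2c, Cdhr2, Guca2a, Mep1a, Tspan8, Tm4sf20 and Vil1, at log2 fold changes between 1.02 and 1.41. Gucy2c, the guanylin receptor, had 190, 224 and 130 in WT Cold and 70.4, 112 and 36.4 in WT RT. The ligand Guca2a had 1061, 1321 and 815 in WT Cold and 498, 616 and 280.4 in WT RT. In both, WT RT library C was the lowest of the 6, as it was in the summed counts of the list. In 13 of the 24 all WT Cold libraries lay above all WT RT libraries, as in 22.8% of all genes, but the list was chosen after values were seen. The number called was 0 without WT Cold library A, WT Cold library B, WT RT library C or the mean-variance trend.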
